A study of Mus musculus with 8 samples.

Results

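Acetylated regions of the mouse adrenal gland that were first called at 2 weeks of age and were called again in the adult are described here. Members were chosen by the presence of peaks alone: the 7 deposited lists of acetylation peaks were merged into union regions on chromosomes 1 to 19, and a member overlaps a peak in both 2-week lists and both 12-week lists and no peak at E18.5 or in either P1 list. The rule selected 2057 of 147792 union regions (1.39%), or 6.84% of the 30058 regions called in all 4 older lists. They spanned 4.55 Mb. Because presence at 2 and 12 weeks and absence before are what chose them, neither is a finding.

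The measured mark is acetylated lysine 27 of histone H3 (H3K27ac), which sits on nucleosomes at active promoters and enhancers. Adrenal glands from the inbred strain C57BL/6J were assayed by chromatin immunoprecipitation and sequencing, and the labels name no treatment or allele. Glands were pooled: 30 at E18.5 (embryos of undetermined sex), 22 each from P1 females and P1 males (postnatal day 1), 12 each from 2-week females and males, and 6 each from 12-week females and males. There was 1 library for each age and sex, so no value has a replicate of its own and no p-value is given. The lists hold no read counts, so depth is unknown and an absent peak may be a missed one. In material from all cells of a gland, a change in the share of a cell type and a change within its cells cannot be told apart. The promoters of Nr5a1, Star and Cyp11a1, which define steroid-producing cells, and of Th, which defines catecholamine-producing chromaffin cells, were called in all 7 lists, that of the chromaffin gene Dbh in all but 12-week males, and that of Chga in 3 lists (E18.5 and both at 2 weeks).

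The adrenal cortex makes steroid hormones from cholesterol under the control of the pituitary hormone ACTH and of angiotensin, and the medulla inside it makes catecholamines. In the mouse the cortex keeps being remodelled after birth: the fetal cortex gives way to the definitive zones, and a transient inner layer, the X-zone, forms and later regresses. Enhancers are stretches of DNA, often far from the gene they act on, where transcription factors bind. In cortical cells NR5A1 (SF-1), an orphan nuclear receptor that binds DNA as a single molecule, is the factor on which steroid-producing identity depends.

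The sequence of a few members is shown to make the regions concrete. Each line gives 300 bases of the GRCm38 plus strand (build mm10 in the submitters' processing notes) at the centre of the stretch that all 4 older lists share. Capitals mark a match to the NR5A motif CAAGGTCA, here read on the minus strand. The first 3 belong to high-ranking distal members that hold such a match, and the fourth, with no match, lies near Hsd3b1, which encodes the 3β-hydroxysteroid dehydrogenase of the cortex.
Fgfr2 side, chr7:130114024-130114323: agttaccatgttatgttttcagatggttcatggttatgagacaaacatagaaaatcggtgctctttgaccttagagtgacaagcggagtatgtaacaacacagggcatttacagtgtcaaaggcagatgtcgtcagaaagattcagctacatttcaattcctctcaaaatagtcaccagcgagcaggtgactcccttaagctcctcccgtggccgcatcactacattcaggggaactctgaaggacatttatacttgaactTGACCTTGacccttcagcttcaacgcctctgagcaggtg
Grik1 intron, chr16:87930167-87930466: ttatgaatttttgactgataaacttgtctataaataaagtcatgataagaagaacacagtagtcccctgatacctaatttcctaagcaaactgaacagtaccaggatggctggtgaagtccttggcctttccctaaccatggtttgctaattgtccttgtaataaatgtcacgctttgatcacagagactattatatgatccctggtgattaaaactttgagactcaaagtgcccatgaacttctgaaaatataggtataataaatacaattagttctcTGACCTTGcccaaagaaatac
Ptprg intron, chr14:12100671-12100970: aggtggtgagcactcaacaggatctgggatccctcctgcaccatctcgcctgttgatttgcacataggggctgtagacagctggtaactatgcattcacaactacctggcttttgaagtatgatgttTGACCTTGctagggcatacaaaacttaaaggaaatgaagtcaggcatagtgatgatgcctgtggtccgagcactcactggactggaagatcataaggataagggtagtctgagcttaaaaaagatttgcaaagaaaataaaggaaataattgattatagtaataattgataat
Hsd3b1 side, chr3:98843124-98843423: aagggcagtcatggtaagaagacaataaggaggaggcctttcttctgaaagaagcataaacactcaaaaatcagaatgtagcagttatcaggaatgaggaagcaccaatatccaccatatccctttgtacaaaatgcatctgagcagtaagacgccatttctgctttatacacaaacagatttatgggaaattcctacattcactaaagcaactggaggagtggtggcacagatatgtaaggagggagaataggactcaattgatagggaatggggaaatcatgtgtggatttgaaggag
Series of 4 values run in the order 2-week females, 2-week males, 12-week females, 12-week males. The Fgfr2 window belongs to an intergenic member (chr7:130110501-130117846), 148345 bp from the nearest protein-coding start, that of the fibroblast growth factor receptor gene Fgfr2. The member's −log10 q was 4.74, 4.61, 4.71 and 4.05, so the 4 lists lay close together. The Grik1 window lies inside the gene of a glutamate receptor subunit, and its member had a −log10 q of 4.23, 3.25, 7.92 and 3.27, highest in 12-week females.

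Most members were weak peaks. The −log10 q of a peak is the caller's measure of confidence within its own library, and it moves with depth, so each value is also given as a percentile of its own list. An order of q values or percentiles across lists describes the lists and is no measured change of the mark. Below, values of the ages are called overlapping or not for single regions. The female and male libraries are not replicates of an age, and the share of all members with such an order was not counted. Over the 2057 members the median −log10 q was 2.09 (range 1.18 to 10.4) and 1.72 (1.07 to 6.98) for 2-week females and males, and 3.16 (1.23 to 16.6) and 2.1 (1.11 to 9.11) for 12-week females and males. As percentiles these medians were 36.7, 35.4, 55.7 and 46.1. The members thus lay below the middle of 3 lists and slightly above it in 12-week females. The other 28001 regions called in all 4 older lists had medians of 69.8, 67.3, 78.2 and 71.8. Only 2 members reached a −log10 q of at least 5 in all 4 lists, and 174 lay above the 50th percentile in all 4. By percentile, 1089 of the 2057 members ranked highest in 12-week females, so a highest value in that list is common among members.

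The rank of a region and its absence from the younger lists went together. Among regions called in all 4 older lists, 22.8% of the 2355 whose lowest percentile was at most 10 had no E18.5 or P1 peak (95% Wilson interval 21.1% to 24.5%, counting error only). The share fell step by step, to 8.18% of the 2591 regions between the 40th and 50th percentiles and 0.112% of the 11568 above the 70th, which is 13 regions. Which regions met the rule depended on the threshold: with only peaks of −log10 q 5 and upward in every list, 414 regions met it, and 2 of them were among the 2057. With that limit on the older lists alone, 2 regions met it, so the count also depended on the limit set for the younger lists. How far the caller's own cutoff in the younger libraries sets the membership was not tested. Just inside the rule, the 3 members of lowest rank lay in introns of Slco3a1, at Ifit1bl1 and 105312 bp from Cartpt, with a lowest percentile of 0.0043 to 0.060. Just outside it, the 3 highest-ranking regions called in all 4 older lists and in 1 younger list lay in an intron of Ntrk3 (lowest percentile 82.6, with a P1 female peak of −log10 q 1.75), near Efhd1 (81.5, with an E18.5 peak of 1.42) and near Zfand5 (80, with a P1 male peak of 2.01). A further 1015 regions missed the rule through an E18.5 peak alone, 939 through a P1 female peak and 979 through a P1 male peak.

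**Figure D1:**
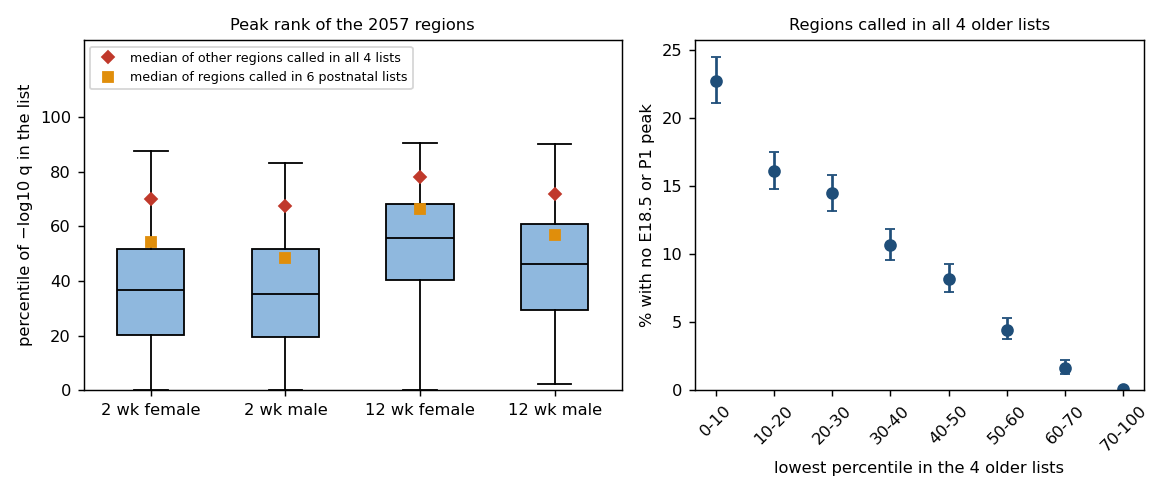
Left, percentile of −log10 q within each older list for the 2057 members (box, quartiles; line, median; whiskers, range), with the medians of 2 other groups of regions as points. Right, share of regions called in all 4 older lists that had no younger peak, by their lowest percentile (points, with 95% Wilson intervals), falling from 22.8% to 0.112%.

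The highest-ranking members were few and varied. The first, chr8:111923219-111923702, is 484 bp in an intron of Tmem231, which encodes a protein of the ciliary transition zone. Its −log10 q was 8.25, 6.51, 15.5 and 9.11, and its lowest percentile 82.1. The second was also the widest, chr15:10377447-10390122, 12676 bp over exons and introns of Agxt2, which encodes a mitochondrial aminotransferase. Its values were 5.53, 4.92, 8.67 and 4.91, and its lowest percentile was 77.2. The Agxt2 region was highest in 12-week females by either measure. The Tmem231 region was highest there by −log10 q, whereas its percentiles in the 12-week lists were 89.5 in females and 89.9 in males.

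A pair of members stood close together on chromosome 8, at Cklf (chr8:104264042-104265657) and over the start of Cmtm2a (chr8:104293164-104297171), genes of one family of chemokine-like factors. The Cklf region had −log10 q values of 4.75, 4.22, 7.91 and 8.11, and the Cmtm2a region 4.18, 4.34, 8.98 and 6.85. At both, each 12-week value exceeded each 2-week value. A region of 2017 bp near Cst3 (chr2:148900579-148902595), the cystatin C gene, had the highest values at 2 weeks among the members, 10.4 in females and 6.98 in males, with 5.2 and 8.05 at 12 weeks. It and the Tmem231 region were the 2 with a −log10 q of at least 5 throughout. The remaining 5 of the first 10 lay in introns of Tnik, a kinase gene, and Ric3, a chaperone gene for acetylcholine receptors, and in intergenic sequence nearest to Cthrc1, Skap2 and Hnrnpll, with lowest percentiles of 70.4 to 74.2.

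Members were mostly far from promoters. Within 1 kb of any annotated transcription start lay 152 of them (7.39%, 95% Wilson interval 6.34% to 8.6%), against 47.6% of the other regions called in all 4 older lists. It depended on the threshold: of the 414 regions that met the rule with only peaks of −log10 q 5 and upward, 39.1% lay there. The share was 6.22% (5.51% to 7.01%) for the 3972 regions called in both 12-week lists only, and 17.5% (14.4% to 21%) for the 504 called in the E18.5 and P1 lists only. At starts of protein-coding genes there were 46 members (2.24%). Introns without exons held 906 (44.0%), exons were touched by 306 (14.9%), and 845 (41.1%) lay outside protein-coding genes. Of all union regions, 15.7% lay within 1 kb of any start, 10.9% at starts of protein-coding genes and 23.4% touched exons, all above the members' shares. Introns without exons held 38.1% of them, below the members' interval of 41.9% to 46.2%, and 38.4% were intergenic. The intron share was not particular to members. It was 45.5% for the regions called in all 6 postnatal lists but not at E18.5 and 47.4% for the 12-week-only regions. Exons were touched by 14.8% and 13.3% of these classes, near the members' share. The median distance to the nearest protein-coding start was 35.7 kb (quartiles 13 kb and 89.7 kb), against 33.9 kb for the regions called in all 6 postnatal lists but not at E18.5, 28.0 kb for the 12-week-only regions and 23.8 kb for the fetal and newborn ones, and 455 members (22.1%) lay over 100 kb away, beside 18.1% of all union regions. Regions called in all 7 lists, which are rich in promoters, had a median distance of 0.

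**Figure D2:**
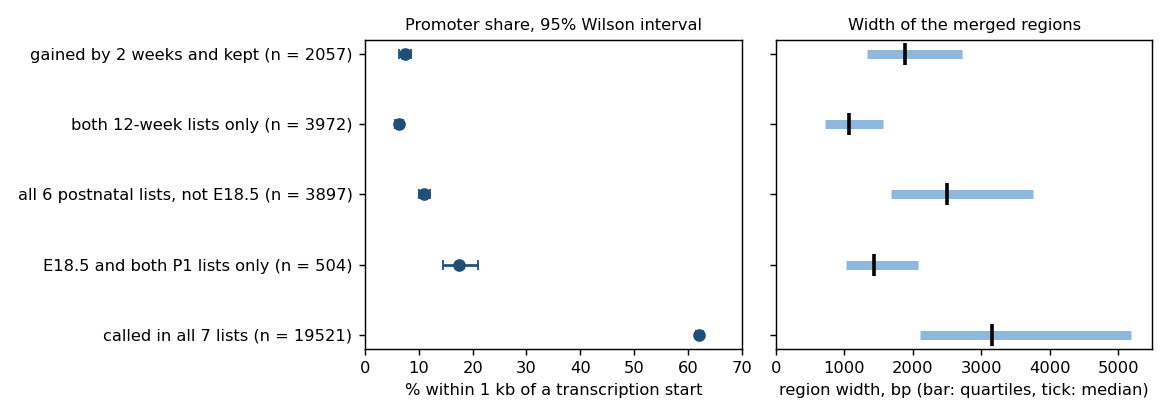
Left, share of regions within 1 kb of a transcription start with its 95% Wilson interval, for members and 4 other classes of regions; members stand at 7.39% and regions called in all 7 lists at 62.1%. Right, median and quartiles of region width in bp; the members' median is 1881 bp.

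The promoter members of highest rank covered or neighboured starts of Cmtm2a, Caln1, Ctla2b, Vil1 and Shroom3. At Caln1, which encodes a calcium-binding protein, the −log10 q was 4.3, 4.13, 7.57 and 3.58, and the 2-week and 12-week values overlapped. At Ctla2b, a cysteine protease inhibitor gene, the values were 3.02, 2.72, 5.97 and 4.54, and at Vil1, the gene of the actin-binding protein villin, 2.99, 2.49, 6.56 and 4.50. For both, each 12-week value exceeded each 2-week value. The Shroom3 region gave 2.97, 3.10, 3.59 and 2.45, and the 2-week and 12-week values overlapped. The lowest percentiles of these 5 regions ran from 53.8 to 71.2.

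The members' width had a median of 1881 bp (quartiles 1328 and 2713 bp). A region is the union of its peaks, so each further list can only widen it, and the order of the classes by width is no finding. The 12-week-only regions had a median of 1061 bp, and the regions called in all 6 postnatal lists but not at E18.5 one of 2503 bp. After the Agxt2 region, the widest lay over exons of Gmeb2 (11283 bp) and in introns of Itgb5 (9171 bp), Babam2 (8861 bp) and Lmcd1 (8738 bp). The share of the region that the peak covered had a median of 45.2%, 38.4%, 88.9% and 71.5%. Summed over members this was 2.02 Mb, 1.8 Mb, 3.75 Mb and 3.09 Mb, with mean fold enrichments of 3.07, 2.99, 3.29 and 3.03. The whole lists covered more as well, from 76.1 Mb and 68.0 Mb at 2 weeks to 129.3 Mb and 101.3 Mb at 12 weeks. In 1331 members (64.7%) more bases were called at 12 weeks in both sexes, beside 66% of the other regions called in all 4 lists. That share is near the background.

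Members stood higher within the 12-week lists than within the 2-week lists, by a median of 16.7 percentile points in females and 8.96 in males. The lists differ in length (50197 and 46698 peaks at 2 weeks, 67971 and 53116 at 12 weeks), so these gaps are no measured change. For the other regions called in all 4 older lists the gaps were 5.42 and 2.35 points, and for those called in all 6 postnatal lists but not at E18.5 they were 10.5 and 6.6. The percentile was higher at 12 weeks in both sexes in 1108 members (53.9%), beside 52.9% of the other regions, again close to the background. In 210 members (10.2%) the percentile was lower at 12 weeks in both sexes, beside 12.8% of the other regions. Between the sexes, the female percentile exceeded the male one by a median of 0.89 points at 2 weeks and 8.09 at 12 weeks. It was higher in females at both ages in 730 members (35.5%), beside 46.6% of the other regions. The male percentile was the higher at both ages in 320 members (15.6%), beside 9.50% of the other regions. For the regions called in all 6 postnatal lists but not at E18.5 these shares were 46.45% and 9.44%. Members rank lower in the lists than the other regions, so the gaps and shares, by age and by sex, are not directly comparable. None of these differences was tested over samples.

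Across the 2057 members, Spearman's rho was 0.529 between the 12-week libraries and 0.378 between the 2-week libraries. It was 0.343 and 0.287 within females and males across ages, and 0.290 and 0.332 for pairs that differed in both. These are descriptions across regions, which are not replicates. Over the other regions called in all 4 lists the same coefficients were between 0.865 and 0.919. The 2 sets differ in the ranks they span, with a lowest percentile over 70 in 13 members and in 11568 of the 30058 regions called in all 4 lists, so the coefficients are not compared.

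The nearest other member was a median of 158 kb away, and 256 members (12.4%) had one within 10 kb. The 12-week-only regions lay a median of 78.2 kb from the nearest of their own, and 14.5% had one within 10 kb. The nearest younger peak of any strength lay at a median of 3.76 kb, and 234 members (11.4%) lay within 1 kb of one. Regions called in all 7 lists lay within 10 kb of 665 members (32.3%). Such distances depend on how many regions there are to be near. There were 2057 members, 3972 12-week-only regions and 106203 autosomal peaks in the E18.5 list alone, so the order of these distances is no finding. Chromosomes carried between 0.600 members per Mb (chromosome 3) and 1.13 (chromosome 11), or 4.99% (chromosome 8) to 8.47% (chromosome 13) of their regions called in all 4 older lists. Joining members less than 12.5 kb apart left 1764 alone and 293 in 138 clusters. The largest cluster held 6 members in 23871 bp over Filip1, a gene for a filamin-binding protein (chr9:79871388-79895258), and 4 members each lay over Galnt18 and Cobll1.

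Limch1, which encodes an actin-binding regulator of non-muscle myosin, was the nearest start within 100 kb of 8 members, more than any other gene. They measured 761 to 5708 bp, 7 in its introns and 1 intergenic. The member of highest rank there, 5708 bp in an intron (chr5:66767478-66773185), had −log10 q values of 2.75, 2.9, 3.81 and 2.9. The next, chr5:66777847-66779543, was higher at 2 weeks (4.42 and 3.22) than at 12 weeks (2.77 and 1.88), so these 2 members of one locus differed in order. Around the gene the E18.5 list held 17 peaks and the P1 lists 11 each, against 24 to 31 in the older lists, of which 8 or 9 fell in members.

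Cacnb2, the gene of a voltage-gated calcium channel subunit, had 6 members, all in introns. Among the Cacnb2 members the −log10 q ranged from 1.24 to 3.17 at 2 weeks and from 1.44 to 6.22 at 12 weeks. Rora, which encodes an orphan nuclear receptor of the clock's stabilising loop, had 6 by nearest start and 8 within 20 kb of its long gene body. The widest of these, 7491 bp (chr9:69188640-69196130), had −log10 q values of 2.48, 3.10, 4.64 and 2.99. Cobll1 had 5, Elmo1, which encodes a regulator of Rac signalling and cell engulfment, had 5, and 5 members nearest to the start of Fam196a lay within Dock1, the gene of an Elmo1 partner. The highest of the Elmo1 members, in an intron (chr13:20156472-20160170), gave 4.52, 3.45, 5.67 and 4.35. Caln1 and Tmem30a, the start nearest to the Filip1 cluster, also had 5 each.

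**Figure D3:**
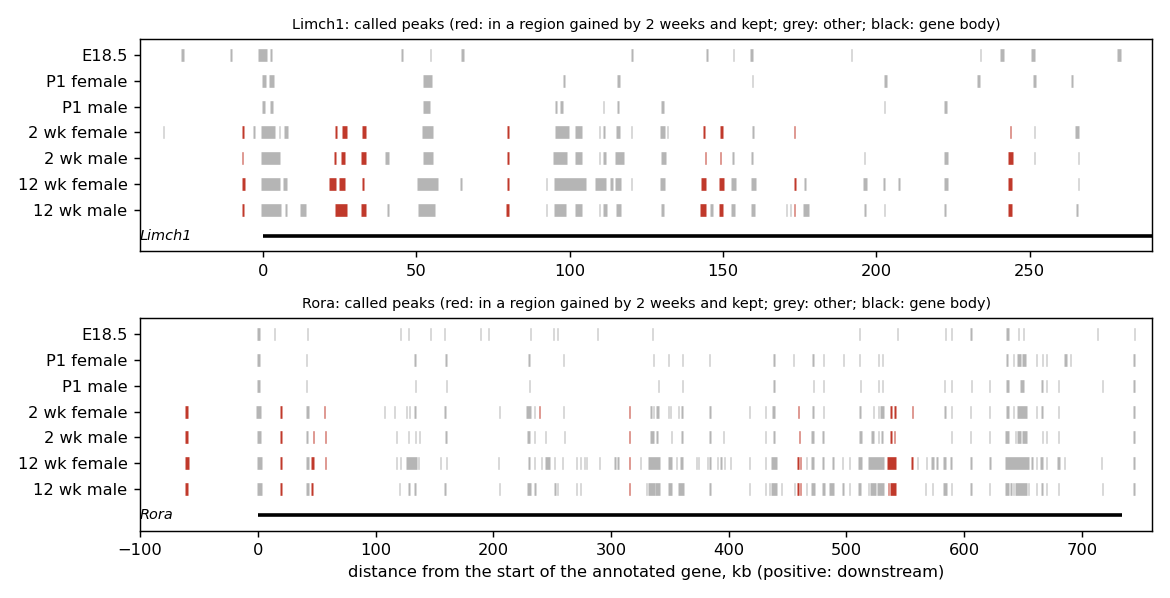
Called peaks of the 7 libraries around Limch1 (top) and Rora (bottom), by distance in kb from the start of the annotated gene; red marks peaks inside members, grey other peaks, and black the gene body. Around Limch1 the older lists held 24 to 31 peaks and the younger lists 11 to 17, and the red peaks are spread among grey ones.

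Genes were then taken from 19 lists of adrenal function and of cell types the gland could hold. Of all autosomal protein-coding genes, 8.2% had a member within 20 kb of the gene body. This became 13% within 50 kb, 4.42% when a transcription start had to lie within 20 kb, and 7.64% with the same number of peaks per list. The share within 20 kb of the gene body rose with gene length. It went from 3.08% of the 5195 shortest genes to 17.3% of the 5195 longest (45.6 kb and more). Over the lists together it was 37 of 287 genes (12.9%), whose median length of 22.6 kb exceeded the 17.6 kb of all genes.

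Among 20 steroidogenic genes, 3 had a member: Hsd3b1, H6pd and Srd5a1, each with 1. Within 50 kb of the gene body the count was 7, beside 13% of all genes. With the same number of peaks per list it was 1, beside 7.64% of all genes. The Hsd3b1 region (chr3:98842914-98844338, intergenic, 15456 bp from the start) had −log10 q values of 2.93, 1.79, 11.2 and 5.74. Both 12-week values exceeded both 2-week values, and its percentile went from 57.9 and 38.5 to 85.6 and 80.6. The region in Srd5a1, the gene of a steroid 5α-reductase (chr13:69594736-69597033, which also touches Nsun2), gave 2.40, 1.18, 7.33 and 2.48, highest in 12-week females. Near H6pd, which encodes the enzyme that supplies NADPH in the endoplasmic reticulum, the nearest start was that of Spsb1 and the values stayed between 1.32 and 1.98. The other 17 genes of the list, Star, Cyp11a1, Cyp11b1 and Mc2r among them, had no member.

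Of 27 genes of cholesterol supply and lipid storage, 4 had 1 member each. Within 50 kb 7 genes had one, beside 13% of all genes. The 4 were Scarb1 (the receptor that takes up cholesterol from high-density lipoprotein), Abca1 (the cholesterol efflux transporter), Hmgcs1 (of cholesterol synthesis) and Npc1 (which exports cholesterol from lysosomes). The Scarb1 region, 3154 bp and 5588 bp from the start (chr5:125346682-125349835), had −log10 q values of 2.12, 1.92, 3.63 and 4.2, each 12-week value above each 2-week value. The Npc1 region gave 1.76, 3.23, 7.37 and 5.38, also without overlap. The Abca1 region gave 2.23, 1.64, 2.71 and 1.95, which overlap between the ages.

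Of 25 genes of ACTH and cAMP signalling, 5 had members, and 1 did when the start had to lie within 20 kb, a distance at which 4.42% of all genes had one. Pde8b, a cAMP phosphodiesterase gene, had 4, Pde4d, another, had 2, and Nr4a3, Akap13 and Adcy9 had 1 each. The Nr4a3 region, 6441 bp of intergenic sequence beyond the gene's end (chr4:48105457-48111897) and nearest to the start of Stx17, gave 3.44, 3.23, 5.71 and 4.69, with no overlap between the ages. The Pde8b region of highest rank, in an intron (chr13:95142829-95146405), gave 1.87, 2.31, 4.96 and 1.91, which overlap. The list's genes are long, with a median of 62.4 kb.

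Of 20 genes of the zona glomerulosa and capsule, the outer cortex and its progenitor layer, 5 had members: Znrf3, an inhibitor of Wnt signalling, had 2, and Axin2, a Wnt target, Shh, a signal of cortical progenitors, and Vsnl1 and Dab2, markers of the outer cortex, had 1 each. By distance to the start, 3 of the 20 had one. The list's genes are long, with a median of 45.8 kb, and of all genes of 45.6 kb and more 17.3% had a member. The Axin2 region gave 2.35, 1.35, 5.49 and 2.26, highest in 12-week females, and the Shh region 2.63, 1.23, 3.99 and 4.11, with each 12-week value above each 2-week value. The other 4 regions ranged from 1.43 to 3.62 over the 4 lists. Of 4 X-zone genes, with a median length of 197.9 kb, Thrb, which encodes a thyroid hormone receptor, had 1 member. Its values were 1.59, 1.49, 3.18 and 2.21. Among 15 glucocorticoid-responsive genes, Zbtb16, Nfkbia and Klf9 had 1 each, and 1 of the 15 had one by distance to the start. The Zbtb16 region, in an intron (chr9:48700278-48702999), gave 4.0, 2.79, 8.7 and 5.69, whereas the Nfkbia region was lowest in 12-week males (3.52, 4.29, 3.22 and 1.43). In the clock list Rora (8) and Hlf (1) of 19 genes had members. That count was 4 within 50 kb, and 1 both by distance to the start and with the same number of peaks per list. Of all genes, 13%, 4.42% and 7.64% had one at these settings. In the antioxidant list Nfe2l2 of 22 genes had 1 (2 genes with the same number of peaks per list), with 1.87, 1.78, 11 and 4.04.

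Among cell types, 4 of 9 endothelial genes had members: Flt1 (2), Kdr and Tek, receptors for vascular growth factors, and Cdh5, the endothelial cadherin. When the transcription start itself had to lie within 20 kb of a member, 1 of the 9 was left. These genes are also long, with a median of 45.6 kb. The Tek region, 7973 bp over an exon and introns (chr4:94825511-94833483), gave 2.91, 2.71, 3.47 and 2.12. The Flt1 region gave 2.62, 2.47, 3.22 and 2.16, and the Kdr region 3.38, 2.65, 3.36 and 1.66, so none of the 3 separated the ages. Of 8 fat-cell genes, Plin1 and Adipoq had 1 each, of 11 immune genes Mrc1, the macrophage mannose receptor, had 2, and of 15 chromaffin genes Ddc had 1. By distance to the start the X-zone and chromaffin counts were 0, and with the same number of peaks per list the immune count was 0. At Plin1, which encodes the protein coat of lipid droplets, the values were 3.31, 2.65, 4.75 and 1.97. The region assigned to Ddc, of catecholamine synthesis, lies beyond that gene's end and 2933 bp from the start of Fignl1, and its values were 6.66, 2.37, 5.24 and 3.59, highest in 2-week females. None of the 5 Schwann-cell, 10 erythroid, 8 kidney, 8 liver, 14 fetal and growth and 16 cell-cycle genes measured had a member. For these 6 lists, 50 kb in place of 20 kb gave 1 liver, 1 fetal and growth and 2 cell-cycle genes, beside 13% of all genes. The same number of peaks per list gave 1 Schwann-cell and 1 cell-cycle gene, beside 7.64% of all genes.

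Across 47 nuclear receptor genes, 8 had members: Rora (8), Nr1h4 (2), and Esrrg, Nr4a3, Esr1, Thrb, Vdr and Ppard (1 each). By distance to the start 4 of the 47 had one, and these genes have a median length of 47.1 kb. The Esrrg region, in an intron, gave 2.47, 2.14, 6.21 and 3.35, with each 12-week value above each 2-week value.

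**Figure D4:**
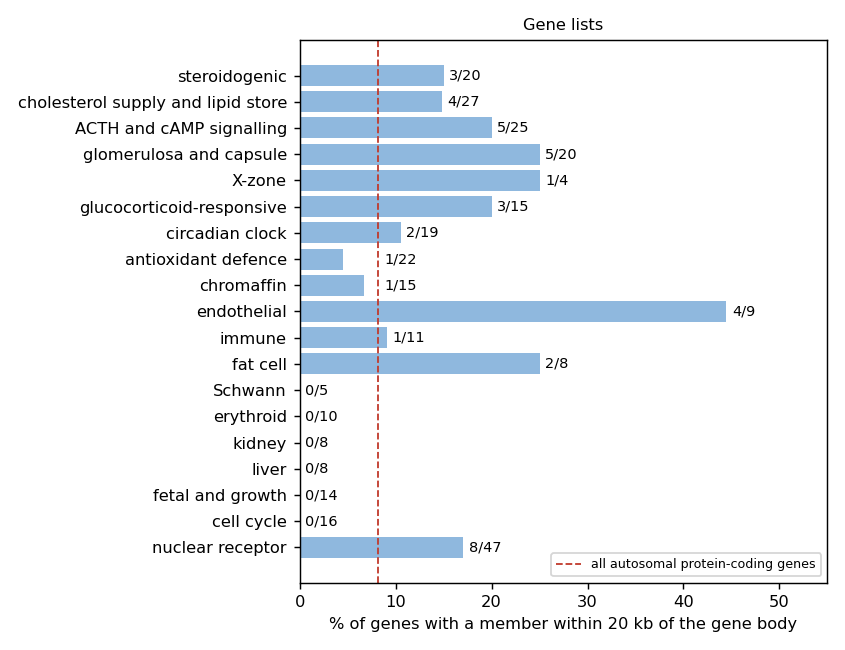
Share of the measured genes of each list with at least 1 member within 20 kb of the gene body (bars, with counts), beside the 8.2% of all autosomal protein-coding genes (dashed line). Bars are not adjusted for gene length; the endothelial list is highest with 4 of 9 genes (1 of 9 by distance to the start) and 6 lists have none.

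Sequence content was read in windows of 300 bases for members over 1 kb from a protein-coding start. Of 2011 such members, 1841 had bases shared by all 4 older lists, on which the window was centred, and 170 had none. The median GC content of the windows was 46.7%, against 49.7% for the 15901 windows of other distal regions called in all 4 lists, 46% for the postnatal regions not called at E18.5, 47.3% for the 12-week-only regions and 52.3% for the fetal and newborn ones. Repeat-masked bases made up 14.7% on average, and 13.5% in the other regions.

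The NR5A motif CAAGGTCA, as printed in the windows near Fgfr2, Grik1 and Ptprg, occurred on either strand in 89 member windows (4.83%, 95% Wilson interval 3.94% to 5.91%). The other distal regions held it in 3.68% (3.40% to 3.98%), the 12-week-only regions in 4.80% (4.17% to 5.52%), those called in all 6 postnatal lists but not at E18.5 in 3.82% (3.24% to 4.49%) and the fetal and newborn regions in 1.93% (0.940% to 3.94%). The intervals of members and other older regions overlapped in these windows. In windows of 600 bases they did not, at 9.29% (8.05% to 10.7%) and 7.21% (6.82% to 7.62%). No test was made over regions. With the letters reversed, which keeps the composition, the shares were 1.25% and 1.36% in members and other regions. Within members the share was 4.12% of the 461 windows of lowest rank and 5.22% of the 460 of highest rank, with overlapping intervals. A match is a run of letters and does not show binding.

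The other 14 motifs were searched the same way. The letters AGATAA, read by GATA factors, were found in 15.8% of member windows and 14.3% of other distal windows. The AP-1 letters TGANTCA were in 13.1% and 12.6%. The steroid receptor element (ACANNNTGT) was in 10.5% and 9.75%, and TTCAAAG, read by the Wnt effectors TCF/LEF, in 8.47% and 7.06%. The NFI motif (CTTGGCA) stood at 8.26% and 8.19%, TEAD (CATTCCA) at 6.14% and 5.42%, RUNX (TGTGGTTT) at 2.39% and 2.45%, C/EBP (TTGCNNCAA) at 2.23% and 2.06% and NR4A (AAAGGTCA) at 2.17% and 2.53%. Members held fewer ETS matches (AGGAAGT, 9.51% against 11.6%), fewer CTCF core matches (AGGGGGC, 2.77% against 4.82%) and fewer KLF/SP matches (CCCCGCCC, 0.815% against 2.88%), and in these 3 the intervals did not overlap. Low KLF/SP and CTCF shares were not particular to members. The 12-week-only regions held KLF/SP letters in 0.749% and CTCF letters in 3.30%, and the regions called in all 6 postnatal lists but not at E18.5 in 0.969% and 2.66%. ETS letters were in 10.8% and 12.7% of these 2 classes, both above the members' share. The 12-week-only interval for ETS (9.83% to 11.8%) overlapped that of members (8.25% to 10.9%). The KLF/SP letters hold only C and G, and reversed they gave 0.815% and 2.63%. E-box (CACGTG, 3.91% against 4.63%) and CRE matches (TGACGTCA, 0.598% against 0.390%) had overlapping intervals, as did all motifs not named as fewer. In windows of 600 bases the intervals also separated for AGATAA (32.6% against 27.4%) and TCF/LEF (16.8% against 13.9%). AGATAA was not particular to members either: in windows of 300 bases it was in 16.8% of the 12-week-only and 17.2% of the postnatal regions, and with the letters reversed in 13.1% of member and 10.8% of other windows. TCF/LEF letters were in 7.82% of the 12-week-only and 7.78% of the postnatal regions, between members and other regions. The letters of NR5A and NR4A share AAGGTCA, so a run of bases can fit only one of them.

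**Figure D5:**
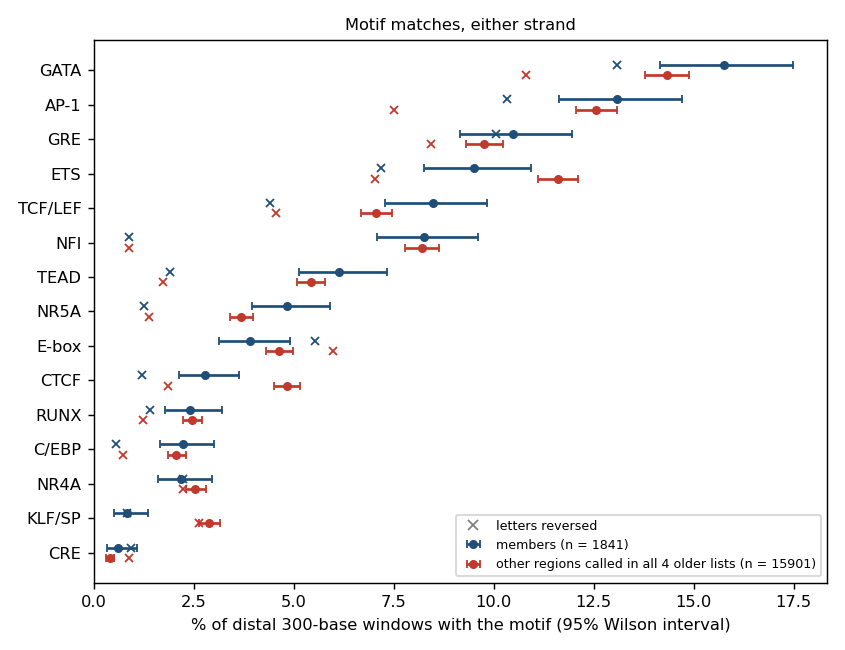
Share of distal 300-base windows with each motif on either strand, for members (blue, 1841 windows) and other regions called in all 4 older lists (red, 15901 windows), with 95% Wilson intervals; crosses give the motif with its letters reversed. Members lie above the others for NR5A, with overlapping intervals, and below them for ETS, CTCF and KLF/SP; for CTCF and KLF/SP the 12-week-only regions, not drawn, were low too (3.30% and 0.749%).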

How the data were processed

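Per the submitters' processing notes, reads were handled with CASAVA 1.8.2, aligned with Bowtie2 2.3.4.3 to mm10 and peaks were called with MACS2 2.1.1; deepTools 3.2.2.0 is also named. Cutoffs, read filters and the control library are not given in the sources used here. For each immunoprecipitated library the authors deposited broad peaks as the caller wrote them, with a fold enrichment ratio, a −log10 p, a −log10 q and a score, which was not used. These values describe each peak in its own library and were ranked within a list; where they are set side by side across lists, they describe the lists. The library of input DNA from 12-week females was not analysed here.

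GRCm38 is the same build as mm10; 0 peaks ended past a chromosome. Touching or overlapping peaks were merged, and 1 shared base counted as a call. Per region and list the strongest peak was used. Transcription starts, genes and exons came from GENCODE release M21 (basic set), sequence and repeat masking from RefSeq's GRCm38 assembly; where a symbol had several protein-coding entries the longest was kept. Members, gene lists and motifs were chosen with earlier results of these data known. Named regions were taken by rule: the 10 members whose lowest percentile over the 4 older lists is highest, the 5 highest at promoters, the 5 widest, the 6 genes with most members by nearest start within 100 kb, the 3 highest near each gene list, and 3 on either side of the rule. Of the sequences the rule selects, 4 are printed. On simulated data with 20000 regions, all 1968 placed with the pattern were recovered. Alternatives covered the caller's threshold, list length, overlap, merging, each list in turn, the promoter and gene distances, the ranking measure and the motif window. Software was Python 3.11.15 with numpy 2.4.6, pandas 2.3.3, scipy 1.17.1 and pysam 0.24.0.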

Additional observations from a re-analysis of the deposited data

Results flagged for a closer look

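The rule leaves out chromosome X. There, 36 of 2605 union regions (1.38%) had peaks in both 2-week and both 12-week lists and none at E18.5 or P1, beside 1.39% on chromosomes 1 to 19. These regions lie outside the comparisons above and were not analysed further.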

How the results depend on the processing

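Which regions are selected, and how many, depends on the threshold. When every list was limited to peaks with −log10 q from 5 upward, 414 regions met the rule, of which 2 were members before. Limiting only the older lists in that way left 2 regions. From 2 upward there were 1833 regions, covering 356 of the members, and with the same number of peaks per list 1795, covering 1318. The same covered length per list gave 71 regions, and requiring at least 50% of the region to be covered in each older list gave 341. Dropping 1 list from the rule gave 2167 to 3337 regions, the most without 2-week males (3337). The share near transcription starts was 6.08% within 0.5 kb, 10.6% within 2 kb, 39.1% from −log10 q 5 upward in every list, and 9.3% with the same number of peaks. Of the listed genes, 59 had a member within 50 kb of the gene body, 19 had a transcription start within 20 kb of one, and 0 had one from −log10 q 5 upward in the older lists. Over all genes these settings gave 13%, 4.42% and 0.0144%. The NR5A share was 9.29% in windows of 600 bases (7.21% in the other regions, with intervals that did not overlap), 1.25% with the letters reversed, and 0 in the 2 windows left from −log10 q 5 upward. The shares of members with a higher percentile at 12 weeks or in females stayed within their intervals under both alternatives. Depth is unknown and limits what an absent peak shows. No fit that pairs the ages by sex was made.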

Other observations

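Some members stood at very different percentiles in the 2-week and 12-week lists, which differ in length. They were chosen after their values were seen, and each percentile comes from 1 library. A region near Fcamr (chr1:130768051-130773187) went from percentiles of 0.992 and 2.94 in 2-week females and males to 70 and 76.3 at 12 weeks. An intron of Notch2, a receptor of cell-to-cell signalling (chr3:98016416-98019359), went from 0.313 and 8.51 to 60 and 65.4. In the opposite direction, a region near Rims4 (chr2:163931960-163932877) went from 54.2 and 54.4 to 12.4 and 4.36, and a region over Atad2b (chr12:4952472-4954146) from 60.2 and 43.6 to 26.3 and 8.41.

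Other members, also chosen after their values were seen, differed in rank between the sexes in the same direction at both ages. A region 235184 bp from Tmem114 (chr16:8187293-8189952) ranked at 60.4 in females and 4.15 in males at 2 weeks and at 49.3 and 6.09 at 12 weeks. An intron of Zfpm2, which encodes a cofactor of GATA factors (chr15:40794808-40795746), ranked at 54.6 and 11.7, then 51.1 and 9.90. Higher in males were a region near Arhgap5 (chr12:52441374-52443342), at 16.7 in females and 55.4 in males, then 9.35 and 59.9, and an intron of Sema5b (chr16:35623943-35625836), at 0.0926 and 38.6, then 9.69 and 64.4. All of these regions were called in all 4 lists, as the rule requires, and the differences were not tested.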
